A study of Arabidopsis thaliana with 6 samples.

Results

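The second set of Arabidopsis thaliana explant libraries was compared with the first: 3 replicate 2 libraries, 1 each of Pro35SARR1, arr1-labelled and wild-type (WT) explants, were set against the 3 replicate 1 libraries of the same genotypes, which together are all 6 libraries of the series. The explants were taken when shoot meristems first form, and the question was which groups of genes shifted together between the sets in every genotype. Every explant was a piece of root kept on CIM, which induces callus, for 5 days and on SIM, which induces shoots, for 7 days more. SIM supplied a cytokinin, N6-(2-isopentenyl) adenine at 1 mg/L, together with the auxin IAA at 0.15 mg/L, and light was continuous at 22 °C. In Pro35SARR1, ARR1, a type-B response regulator of the cytokinin pathway, stands behind the 35S promoter, which drives high expression in most plant cells. WT is the unmodified background, and arr1 is named in the labels as a single mutant of that gene. All 3 genotypes shared the medium, light and temperature. The number of a replicate comes from the sample titles, and the labels name no date, batch or culture for it. Nothing in them says that the libraries came from separate cultures, so a p-value here gives the spread among the libraries alone, and that spread may be technical.

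The deposited estimated counts added up to 8193313 to 9381532 per library. A count of 3, taken as the floor of detection per library, is worth 0.335 to 0.345 CPM (counts scaled to the library size, after TMM), a limit that covers counting error only. ARR1 itself did not tell the sets apart: it was at 1909 (Pro35SARR1), 58.6 (arr1-labelled) and 59.8 (WT) CPM in replicate 2, against 1725, 61.2 and 61.3 CPM in the same order in replicate 1, with a log2 difference of 0.03 ± 0.07, adjusted p = 0.862. The libraries labelled arr1 were therefore at the WT level, and a count over the whole gene cannot check a label if the disrupted part lies elsewhere in the gene. In all that follows, a log2 difference is replicate 2 minus replicate 1 within genotype, and a positive value means higher in replicate 2. Errors are standard errors from the edgeR fit to the 3 pairs unless given otherwise. That fit shares information on spread among genes, so an error is not the spread among a gene's own 3 differences. Adjusted p-values come from edgeR's quasi-likelihood test with Benjamini-Hochberg adjustment over all 18083 genes tested. A gene was called at an adjusted p under 0.05.

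Root hairs are tubular outgrowths of single epidermal cells. Transcription factors of the basic helix-loop-helix class, RHD6 and its RSL relatives, start and drive their growth, and the growing tip then draws on reactive oxygen made by an NADPH oxidase and on a wall built from expansins, xyloglucan enzymes, proline-rich proteins and extensins. Many of the genes for these wall proteins carry a root hair element in their promoters. The element was defined on promoters of root hair genes, EXPA7 and several RHS (root hair specific) genes among them, so its presence in those genes is no independent observation. On SIM, root explants that have formed callus start new shoots, and the callus resembles root tissue.

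The promoters of 4 called genes of the root hair list are shown because this list had the largest median shift of the lists chosen. They are the 4 with the lowest adjusted p among those with a root hair element and no exon base in the window. Each line gives the 300 bases before the gene start in RefSeq TAIR10.1, read 5′ to 3′ on the gene's strand, with the element in capitals.
PRP3 (chr3:23182422-23182721, plus strand): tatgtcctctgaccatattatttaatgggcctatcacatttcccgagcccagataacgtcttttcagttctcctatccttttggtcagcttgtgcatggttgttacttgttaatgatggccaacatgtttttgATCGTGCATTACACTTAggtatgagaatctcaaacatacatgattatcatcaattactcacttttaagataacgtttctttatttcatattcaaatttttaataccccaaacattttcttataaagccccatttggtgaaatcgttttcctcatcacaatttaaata
RHS13 (chr4:993040-993339, minus strand): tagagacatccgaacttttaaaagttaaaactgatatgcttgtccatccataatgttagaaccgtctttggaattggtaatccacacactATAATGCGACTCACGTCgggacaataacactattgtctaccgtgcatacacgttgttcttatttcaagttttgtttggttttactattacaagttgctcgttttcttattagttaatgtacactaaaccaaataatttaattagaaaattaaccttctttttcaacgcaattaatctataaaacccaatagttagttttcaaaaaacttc
LRX1 (chr1:4069692-4069991, plus strand): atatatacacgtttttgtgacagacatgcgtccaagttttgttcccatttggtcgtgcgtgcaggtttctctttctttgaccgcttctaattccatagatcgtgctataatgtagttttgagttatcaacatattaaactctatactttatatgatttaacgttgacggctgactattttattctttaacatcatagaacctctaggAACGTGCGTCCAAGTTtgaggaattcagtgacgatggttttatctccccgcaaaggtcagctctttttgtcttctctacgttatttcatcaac
EXPA7 (chr1:4276205-4276504, plus strand): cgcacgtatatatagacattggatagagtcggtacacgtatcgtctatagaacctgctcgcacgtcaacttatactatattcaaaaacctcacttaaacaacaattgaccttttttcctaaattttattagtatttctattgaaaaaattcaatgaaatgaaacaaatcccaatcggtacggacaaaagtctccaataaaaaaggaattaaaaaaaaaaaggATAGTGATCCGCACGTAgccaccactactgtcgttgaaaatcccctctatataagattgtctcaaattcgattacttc

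The element lay 151 to 167 bases before the start of PRP3, 194 to 210 before RHS13, 78 to 93 before LRX1 and 62 to 78 before EXPA7. It reads on the gene's own strand in RHS13 and EXPA7 and on the opposite strand in PRP3 and LRX1. EXPA18 held it as AACATGAACGCACGTC and RHS18 as TCCATGAACGCACGTT. A window of this length held the element, on either strand, in 0.914% of 27561 protein-coding genes and in 0.868% of the tested ones. Of the genes called higher in replicate 2, 12 of 277 held it, 6 of them on the root hair list, and of the genes called lower with a window 0 of 250 did. Its core hexamer, which is CACG with G or T before it and A or T after it, was present on either strand in 20.6% of all windows, in 7 of the 9 called genes of the root hair list and in 10 of the 11 called extensins. Of all 15 tested genes of that list, called or not, 11 held it. Among all genes called higher 26.0% held it, among those called lower 19.2% and among the tested ones 20.8%. The core is part of the element, so each element is also counted there. The full element was in 6 of those 9 genes but in only 1 of the 11 called extensins, LRX1, which is on both lists.

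Genome-wide, 277 genes were higher in replicate 2 (1.53% of those tested) and 259 were lower (1.43%), 536 in all (2.96%). In the same fit, arr1-labelled libraries differed from WT in 2847 genes (15.7%) and Pro35SARR1 from WT in 375 (2.07%). The 536 genes moved the same way in all 3 genotypes in 529 cases. The paired test favours genes whose 3 differences agree, so this count follows largely from the calling and is no separate observation. Of all tested genes 22.9% were higher and 24.8% lower in replicate 2 in all 3. Each count given for a list below is to be read beside these shares of all tested genes. The median called gene was 1.77-fold higher or 1.80-fold lower, and 112 of the higher and 99 of the lower genes differed at least 2-fold. The median over all tested genes was -3.9e-05 on the log2 scale. The 3 replicate 2 libraries all lay above the 3 replicate 1 libraries for 145 of the 277 higher genes, and all below for 122 of the 259 lower ones. In the others the sets overlapped. The share of all tested genes without overlap is not given here, and calling picks genes whose sets lie apart. These counts, and each remark on overlap below, therefore describe the called genes alone.

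The 3 pairs share no library, and their differences followed each other. Across 14842 genes with at least 5 CPM on average, Pearson's r was 0.61 between the Pro35SARR1 and WT pairs, 0.38 between arr1-labelled and WT, and 0.39 between Pro35SARR1 and arr1-labelled. Genes are not independent replicates, and these values are a description. The arr1-labelled pair moved least: the SD of its differences was 0.388 on the log2 scale, and those of the others 0.478 in Pro35SARR1 and 0.523 in WT, and it held the smallest of the 3 differences in 318 of the 536 called genes. By edgeR 0 genes were called when either Pro35SARR1 library was left out, when 2373 and 2397 genes still had an unadjusted p under 0.05 and DESeq2 called 95 higher and 53 lower genes or 83 and 64. Each count of calls by edgeR given for a list below is therefore 0 in those fits. Without a WT library 82 to 95 higher and 59 to 63 lower genes were called, and without an arr1-labelled library 992 higher and 981 to 999 lower. All 536 called genes kept their sign in the fits without a Pro35SARR1 or a WT library, and 535 did without an arr1-labelled one. These fits reuse the same pairs, which already agreed in sign for nearly all called genes. The kept signs were therefore nearly fixed in advance.

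**Figure D1:**
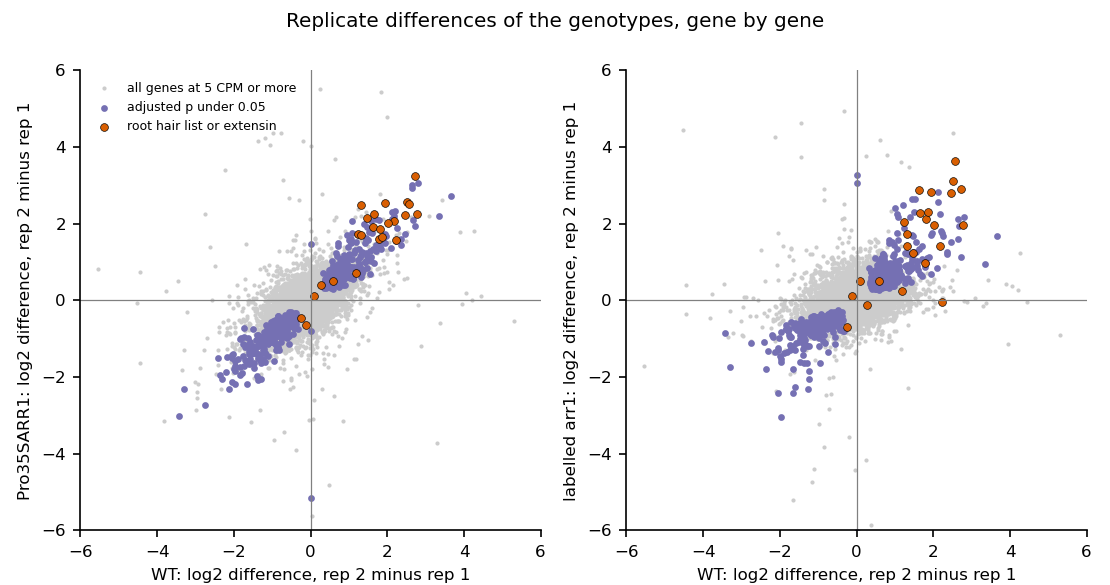
Log2 differences, replicate 2 minus replicate 1, of 14842 genes with at least 5 CPM, with 1 genotype on each axis in each panel, where 3 genes lie outside the axes. Genes called higher and lower are coloured, and the cloud is most drawn out along the diagonal for Pro35SARR1 and WT (r = 0.61).

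Root hair genes had the largest median of the 36 gene lists, which were chosen with earlier results of these data known. This rank is therefore no independent observation. Of the 16 genes listed 15 were tested, and RSL1 was too low. Of the 15, 9 were higher in replicate 2, 0 were lower, and 12 were higher in all 3 genotypes. The median log2 difference was 1.93, or 3.81-fold, with medians of 1.87, 1.59 and 1.47 in the Pro35SARR1, arr1-labelled and WT pairs. Over all tested genes 1.53% were called higher, around a median near 0. Summed over the list the level was 579.6 (Pro35SARR1), 121 (arr1-labelled) and 283 (WT) CPM in replicate 2, against 160.0, 34.9 and 90.8 CPM in the same order in replicate 1. The replicate 2 library was the higher in each genotype, and the sets overlapped, with Pro35SARR1 high and arr1-labelled low in both. By edgeR 9 were called without either WT library, 11 without either arr1-labelled one and 0 without either Pro35SARR1 one, as for all genes. In bulk samples, fewer cells of a type and less RNA per cell cannot be told apart.

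Genes of the growing wall led the list. PRP3, a proline-rich wall protein of root hairs, was at 97.1 (Pro35SARR1), 19.8 (arr1-labelled) and 52.3 (WT) CPM in replicate 2, against 26.2, 4.14 and 14.4 CPM in the same order in replicate 1. Every pair was higher in replicate 2, and only the low arr1-labelled library of replicate 2 fell within the replicate 1 range. The log2 difference was 1.96 ± 0.11 (SE, n = 3 pairs, adjusted p = 0.00821). LRX1, an extensin with leucine-rich repeats that acts in the root hair wall, was at 42.6 (Pro35SARR1), 7.86 (arr1-labelled) and 20.2 (WT) CPM in replicate 2, against 9.67, 2.64 and 4.06 CPM in the same order in replicate 1, a log2 difference of 2.06 ± 0.18, adjusted p = 0.0154. Again the arr1-labelled library of replicate 2 lay below the Pro35SARR1 library of replicate 1. EXT12, an extensin, was at 84 (Pro35SARR1), 22 (arr1-labelled) and 47.7 (WT) CPM in replicate 2, against 14, 2.64 and 12.1 CPM in the same order in replicate 1, a log2 difference of 2.45 ± 0.19, adjusted p = 0.0153. Here the sets did not overlap.

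The expansin EXPA7, which loosens the hair wall, was at 42.1 (Pro35SARR1), 9.34 (arr1-labelled) and 18.7 (WT) CPM in replicate 2, against 9.11, 3.68 and 6.43 CPM in the same order in replicate 1, and the sets did not overlap (log2 difference 1.75 ± 0.20, adjusted p = 0.0265). EXPA18, its close relative, was at 32.4 (Pro35SARR1), 6.26 (arr1-labelled) and 15.8 (WT) CPM in replicate 2, against 9.45, 1.15 and 6.43 CPM in the same order in replicate 1, with each pair higher in replicate 2 and overlapping sets (log2 difference 1.72 ± 0.22, adjusted p = 0.0285). XTH14, an enzyme that cuts and rejoins xyloglucan, was at 65.9 (Pro35SARR1), 11 (arr1-labelled) and 38.3 (WT) CPM in replicate 2, against 20.5, 1.84 and 10.1 CPM in the same order in replicate 1. It differed by 1.93 ± 0.17 on the log2 scale (adjusted p = 0.0154), and only its arr1-labelled library of replicate 2 was within the replicate 1 range.

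Genes annotated as root hair specific moved alongside. RHS13, a member of the Ole e 1 and extensin family, was at 50.6 (Pro35SARR1), 10.4 (arr1-labelled) and 23.4 (WT) CPM in replicate 2, against 12.1, 2.3 and 5.41 CPM in the same order in replicate 1 (log2 difference 2.10 ± 0.12, adjusted p = 0.00821). The peroxidase RHS19 was at 57.8 (Pro35SARR1), 9.68 (arr1-labelled) and 19.7 (WT) CPM in replicate 2, against 11.7, 1.61 and 5.86 CPM in the same order in replicate 1 (log2 difference 2.16 ± 0.18, adjusted p = 0.0154). For both, each pair was higher in replicate 2 and the arr1-labelled library of replicate 2 lay within the replicate 1 range. RHS18, another peroxidase, was at 19.6 (Pro35SARR1), 3.07 (arr1-labelled) and 6.41 (WT) CPM in replicate 2, against 3.07, 0.574 and 2.26 CPM in the same order in replicate 1, low counts whose sets lay next to each other (log2 difference 2.18 ± 0.31, adjusted p = 0.0342). The 15 genes annotated with this name were grouped after their values had been seen and overlap the root hair list. Of 11 tested, 7 were higher and 0 lower (3 to 4 higher without a WT library, 5 with offsets for length and base composition), the pectate lyase RHS14 (log2 difference 2.63 ± 0.28, adjusted p = 0.0213) and RHS12, a pectin methylesterase (log2 difference 2.08 ± 0.32, adjusted p = 0.0392), among them.

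The regulators and the signalling genes did not pass the test. RSL4, which sets hair length, was at 9.16 (Pro35SARR1), 2.39 (arr1-labelled) and 2.14 (WT) CPM in replicate 2, against 3.64, 0.46 and 0.564 CPM in the same order in replicate 1 (log2 difference 1.73 ± 0.36, adjusted p = 0.0651). RHD6, which starts hair formation, was at 15.3 (Pro35SARR1), 1.59 (arr1-labelled) and 2.81 (WT) CPM in replicate 2, against 5.92, 1.84 and 1.92 CPM in the same order in replicate 1 (log2 difference 0.71 ± 0.36, adjusted p = 0.293), with the arr1-labelled pair the other way, and RSL2 stayed at 1.34 (Pro35SARR1), 1.82 (arr1-labelled) and 0.787 (WT) CPM in replicate 2, against 1.25, 0.689 and 1.24 CPM in the same order in replicate 1. RBOHC, the NADPH oxidase of the hair tip, was at 38.4 (Pro35SARR1), 13 (arr1-labelled) and 28 (WT) CPM in replicate 2, against 26.9, 8.96 and 18.5 CPM in the same order in replicate 1 (log2 difference 0.55 ± 0.10, adjusted p = 0.0546). COBL9, a membrane-anchored protein needed for tip growth, differed by 1.18 ± 0.33 on the log2 scale (adjusted p = 0.108). RSL4, RBOHC and COBL9 were higher in replicate 2 in all 3 pairs. The receptor-like kinase RHS10 was at 12.5 (Pro35SARR1), 0 (arr1-labelled) and 2.7 (WT) CPM in replicate 2, against 2.85, 0 and 0 CPM in the same order in replicate 1, with 3 of the 6 libraries at 0.

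**Figure D2:**
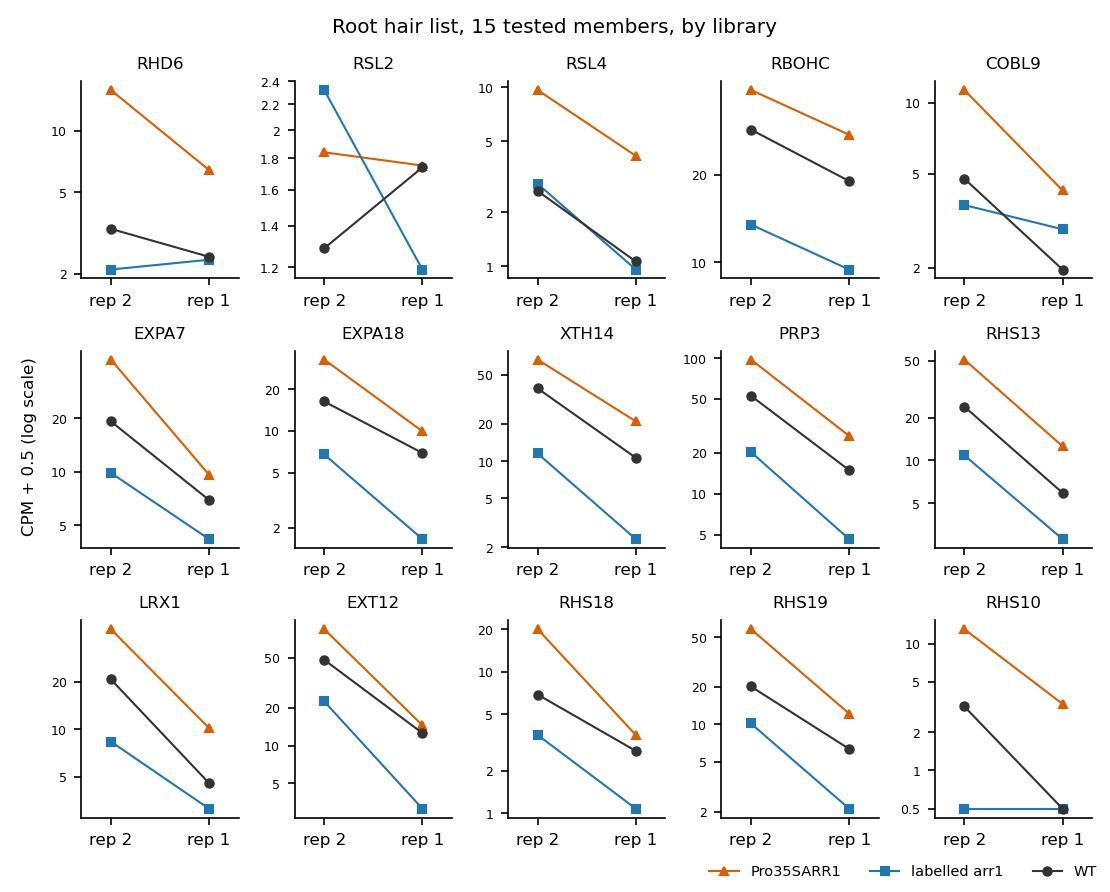
CPM plus 0.5, on a log axis, of root hair list genes in each library, with replicate 2 on the left and replicate 1 on the right and a line joining the pair of each genotype. For PRP3, LRX1, EXT12 and the other called genes each replicate 2 point lies above the replicate 1 point of its genotype, and RHD6 differs in this, with its arr1-labelled pair at 1.59 and 1.84 CPM.

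Among the broader set of 80 genes whose annotation note mentions root hairs, 5 of 68 tested were higher and 1 lower around a median of 0.02. In all 3 genotypes 23 were higher and 19 lower. This set and the families below were grouped after values had been seen. Its called genes were LRX1, EXPA7, MOP10 (log2 difference 1.95 ± 0.25, adjusted p = 0.0285), the peroxidase AT3G49960 (log2 difference 1.90 ± 0.16, adjusted p = 0.0154) and TCTP, and the lower one was the myosin MYA2 (log2 difference -0.73 ± 0.10, adjusted p = 0.0321).

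Extensins, rod-shaped glycoproteins that cross-link into the wall, had more higher genes than any of the other 10 families grouped. Of 20 tested 11 were higher and 0 lower, with a median log2 difference of 1.48 (2.79-fold), and 2 of these, EXT12 and LRX1, are also on the root hair list. EXT13 was at 29 (Pro35SARR1), 6.72 (arr1-labelled) and 16.2 (WT) CPM in replicate 2, against 2.62, 0.46 and 2.03 CPM in the same order in replicate 1, a log2 difference of 3.34 ± 0.22, adjusted p = 0.00898. EXT6 was at 141 (Pro35SARR1), 27.8 (arr1-labelled) and 75.3 (WT) CPM in replicate 2, against 23.2, 2.76 and 12.9 CPM in the same order in replicate 1 (log2 difference 2.71 ± 0.14, adjusted p = 0.00821). EXT10 was at 158 (Pro35SARR1), 37.7 (arr1-labelled) and 102 (WT) CPM in replicate 2, against 33.2, 4.94 and 18.2 CPM in the same order in replicate 1 (log2 difference 2.48 ± 0.13, adjusted p = 0.00821). None of these 3 had overlapping sets. Not all members passed the test. EXT3, one of the most abundant, differed by 0.24 ± 0.10 on the log2 scale (adjusted p = 0.229), EXT4 by -0.47 ± 0.10 on the log2 scale (adjusted p = 0.066) and AT2G43150 by -0.22 ± 0.14 on the log2 scale (adjusted p = 0.409). Neighbouring, nearly identical extensin genes, such as EXT10 and AT5G06630, or AT4G08400 and AT4G08410, may share reads.

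Other wall genes with a root hair annotation or of the same kind were among the largest called differences. PRP1, a proline-rich protein, was at 29 (Pro35SARR1), 3.64 (arr1-labelled) and 11.1 (WT) CPM in replicate 2, against 3.19, 0.46 and 1.35 CPM in the same order in replicate 1 (log2 difference 3.09 ± 0.21, adjusted p = 0.00898), with sets that did not overlap. FLA6, an arabinogalactan protein, differed by 2.83 ± 0.49 on the log2 scale (adjusted p = 0.0485), and the peroxidase AT1G34510 by 3.20 ± 0.34 on the log2 scale (adjusted p = 0.0205). Peroxidases of class III cross-link or loosen walls. Of 45 tested genes picked by the annotation as peroxidase superfamily protein, a wording that RHS18 and RHS19 lack and that the dioxygenase DOX1 shares, 7 were higher and 7 lower around a median of -0.07. Without a WT library these were 4 to 5 and 2, and without an arr1-labelled one 13 and 16. AT1G30870 rose (log2 difference 1.84 ± 0.11, adjusted p = 0.00821), whereas Prx37 (log2 difference -1.56 ± 0.22, adjusted p = 0.0339) and its neighbour AT4G08780 (log2 difference -2.03 ± 0.20, adjusted p = 0.0187) fell, and this last pair may share reads. Of the expansins and xyloglucan enzymes outside root hairs edgeR called 0 of 11, although 6 were higher at an unadjusted p under 0.05 and DESeq2 called 4 higher, around a median of 0.58. EXPA1, the most abundant, was at 1193 (Pro35SARR1), 445 (arr1-labelled) and 1419 (WT) CPM in replicate 2, against 594, 449 and 651 CPM in the same order in replicate 1, with the arr1-labelled pair close together (log2 difference 0.71 ± 0.22, adjusted p = 0.134).

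Genes of the core response to low oxygen were higher as well. When oxygen is short, plants switch to fermentation through pyruvate decarboxylase and alcohol dehydrogenase and feed it with sucrose synthase. Of 14 genes tested 5 were called higher, beside 1.53% of all tested genes, and 0 lower. In all 3 genotypes 11 were higher, beside 22.9% of all, and the median was 0.39. By edgeR 2 were called without either WT library and 7 without either arr1-labelled one. SAD6, an acyl carrier protein desaturase that responds strongly to low oxygen, was at 204 (Pro35SARR1), 136 (arr1-labelled) and 108 (WT) CPM in replicate 2, against 24, 29.6 and 15 CPM in the same order in replicate 1. The sets were far apart, with a log2 difference of 2.70 ± 0.18 (SE, n = 3 pairs, adjusted p = 0.00898). ADH1, alcohol dehydrogenase, was at 137 (Pro35SARR1), 72.8 (arr1-labelled) and 81.4 (WT) CPM in replicate 2, against 44.4, 32.4 and 29.8 CPM in the same order in replicate 1 (log2 difference 1.42 ± 0.11, adjusted p = 0.0141), again without overlap. PCO2, a cysteine oxidase of the oxygen-sensing step, was at 27.3 (Pro35SARR1), 19.9 (arr1-labelled) and 18.7 (WT) CPM in replicate 2, against 12.9, 5.05 and 7.67 CPM in the same order in replicate 1 (log2 difference 1.41 ± 0.20, adjusted p = 0.0325). The smaller calls were SUS4, sucrose synthase, at 0.91 ± 0.13 on the log2 scale (adjusted p = 0.0354), and PDC2, pyruvate decarboxylase, at 0.42 ± 0.07 on the log2 scale (adjusted p = 0.0461), which DESeq2 did not call (adjusted p = 0.0795). PDC1 differed by 2.00 ± 0.39 on the log2 scale (adjusted p = 0.0591), and HB1, the haemoglobin of this response, by 0.29 ± 0.08 on the log2 scale (adjusted p = 0.0995).

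Nuclear genes of carbon fixation were higher by smaller steps. The Calvin cycle and greening list had 8 higher and 1 lower of 25 tested, with a median of 0.38 (1.30-fold). By edgeR 2 were higher and 0 lower without either WT library, and 12 higher and 1 lower without either arr1-labelled one. RCA, the activase that keeps Rubisco working, was at 503 (Pro35SARR1), 540.3 (arr1-labelled) and 885 (WT) CPM in replicate 2, against 298, 354 and 568 CPM in the same order in replicate 1. Every pair differed alike, although WT stood above the other genotypes in both sets, and the log2 difference was 0.67 ± 0.06 (SE, n = 3 pairs, adjusted p = 0.0176). FBA1, a plastid aldolase, was at 105 (Pro35SARR1), 109.9 (arr1-labelled) and 175 (WT) CPM in replicate 2, against 49.7, 77 and 103 CPM in the same order in replicate 1 (log2 difference 0.78 ± 0.11, adjusted p = 0.0355), with no overlap. The small subunit gene RBCS3B differed by 0.63 ± 0.08 on the log2 scale (adjusted p = 0.0281) and its sister RBCS1B by 0.74 ± 0.09 on the log2 scale (adjusted p = 0.0281). RBCS1A, at 1369 to 2685 CPM in replicate 2 against 1005 to 1925 CPM in replicate 1, differed by 0.42 ± 0.06 on the log2 scale (adjusted p = 0.0381). These sister genes are similar enough to share reads. Of the regulators of greening CGA1, a GATA factor, fell (log2 difference -1.20 ± 0.21, adjusted p = 0.0495), while GLK1 differed by -2.00 ± 0.51 on the log2 scale (adjusted p = 0.0923) and GLK2 by 0.63 ± 0.19 on the log2 scale (adjusted p = 0.122). The call of CGA1 was lost in both limma fits (adjusted p = 0.0562 and 0.0598), without either WT library and with offsets for length and base composition (adjusted p = 0.0536).

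Photosystem and light-harvesting genes shared the direction with smaller sizes. Of 37 tested 28 were higher in all 3 genotypes, beside 22.9% of all tested genes, around a median of 0.28. Without either arr1-labelled library edgeR called 24. With all 6 libraries 26 were higher at an unadjusted p under 0.05, DESeq2 called 12, and edgeR called 1. That gene was NPQ4, which encodes the photoprotective PsbS protein, at 161 (Pro35SARR1), 169 (arr1-labelled) and 230.3 (WT) CPM in replicate 2, against 94.7, 107 and 155 CPM in the same order in replicate 1 (log2 difference 0.67 ± 0.07, adjusted p = 0.0205). Transcripts of the plastid's own genome went the other way. They made up 0.0206% to 0.0262% of the counts in replicate 2 against 0.0343% to 0.053% in replicate 1, and of 19 tested 2 were lower and 0 higher, around a median of -0.37. ATCG01070 was at 35.2 (Pro35SARR1), 70.3 (arr1-labelled) and 56.8 (WT) CPM in replicate 2, against 148, 218 and 139 CPM in the same order in replicate 1 (log2 difference -1.65 ± 0.15, adjusted p = 0.0154). ATCG00740 was at 23.1 (Pro35SARR1), 42.6 (arr1-labelled) and 25.4 (WT) CPM in replicate 2, against 76.7, 105 and 85.5 CPM in the same order in replicate 1 (log2 difference -1.58 ± 0.11, adjusted p = 0.0122). Neither had overlapping sets. The fall was not particular to the plastid. Transcripts of the mitochondrial genome made up 0.0033% (Pro35SARR1), 0.00485% (arr1-labelled) and 0.00369% (WT) of the counts in replicate 2. In replicate 1 they made up 0.0048%, 0.00625% and 0.0044% in the same order. Of 14 tested 0 were called by edgeR, around a median of -0.47. What sets the small share of either genome was not tested.

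Glucosinolates are sulfur-rich defence compounds of this plant family, and 3 genes that build those derived from methionine were higher. The list had 5 higher and 0 lower of 21 tested, with a median of 0.43, and 3 higher without either WT library. MAM1, which lengthens the methionine side chain, was at 282 (Pro35SARR1), 261 (arr1-labelled) and 511 (WT) CPM in replicate 2, against 157, 167 and 265 CPM in the same order in replicate 1 (log2 difference 0.81 ± 0.08, adjusted p = 0.0187). WT was highest in both sets, so they overlapped. CYP83A1, an oxidase of the same pathway, differed by 0.73 ± 0.12 on the log2 scale (adjusted p = 0.0408) and the sulfotransferase SOT18 by 0.68 ± 0.11 on the log2 scale (adjusted p = 0.0466). The remaining 2 calls were TGG2 and TGG1, myrosinases that break glucosinolates down, and they rested on the arr1-labelled pair. TGG1 was at 0.112 (Pro35SARR1), 213 (arr1-labelled) and 0.225 (WT) CPM in replicate 2, against 0.569, 24.9 and 0.226 CPM in the same order in replicate 1 and TGG2 at 0.894 (Pro35SARR1), 112 (arr1-labelled) and 0 (WT) CPM in replicate 2, against 0, 11.3 and 0 CPM in the same order in replicate 1, with both other genotypes near 0 in both sets. DESeq2 called neither TGG1 nor TGG2 (adjusted p = 0.968 and 0.634), nor did limma or edgeR without either arr1-labelled library, where 11 other genes of the list were higher. GTR2, a glucosinolate transporter and one of the most abundant called genes, fell, at 801 (Pro35SARR1), 420.1 (arr1-labelled) and 1041 (WT) CPM in replicate 2, against 1265, 779 and 1863 CPM in the same order in replicate 1 (log2 difference -0.80 ± 0.07, adjusted p = 0.0154). Each pair was lower in replicate 2, and the sets overlapped.

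Of 13 auxin-responsive genes tested 2 were called higher, beside 1.53% of all tested genes, and 9 were higher in all 3 genotypes, beside 22.9% of all. The median was 0.42. By edgeR 0 were called without either WT library, where 14 to 15 were tested, and 5 without either arr1-labelled one, while DESeq2 called 3 and 8 were higher at an unadjusted p under 0.05. GH3.6, which joins auxin to amino acids and so inactivates it, was at 349 (Pro35SARR1), 157 (arr1-labelled) and 299 (WT) CPM in replicate 2, against 124, 96.8 and 77.8 CPM in the same order in replicate 1 (log2 difference 1.38 ± 0.23, adjusted p = 0.0439), and GH3.3, of the same family, at 31.5 (Pro35SARR1), 52.2 (arr1-labelled) and 35.5 (WT) CPM in replicate 2, against 20.1, 28 and 18.6 CPM in the same order in replicate 1 (log2 difference 0.83 ± 0.10, adjusted p = 0.0281). The sets did not overlap for either gene. SHY2, an Aux/IAA repressor, differed by 1.15 ± 0.29 on the log2 scale (adjusted p = 0.0905), and IAA1 lay on the other side at -0.20 ± 0.08 on the log2 scale (adjusted p = 0.225). Ethylene genes had 3 higher and 0 lower of 16 tested (1 higher without either WT library): the response factor ERF2 (log2 difference 1.21 ± 0.12, adjusted p = 0.0205), the final enzyme of synthesis ACO1 (log2 difference 1.08 ± 0.14, adjusted p = 0.0285) and the rate-limiting synthase ACS6 (log2 difference 0.76 ± 0.10, adjusted p = 0.0285). EIN3, the master factor of the pathway, differed by -0.04 ± 0.06 on the log2 scale (adjusted p = 0.718).

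Most stress lists held a few calls each, beside 2.96% of all tested genes. In the jasmonate list 3 of 19 were higher around a median of -0.12, and 1 was higher and 1 lower without either WT library. VSP2, a storage and defence protein that jasmonate induces, was at 143 (Pro35SARR1), 26.6 (arr1-labelled) and 199 (WT) CPM in replicate 2, against 30.6, 13.4 and 19.1 CPM in the same order in replicate 1 (log2 difference 2.31 ± 0.41, adjusted p = 0.0497), and its near copy VSP1 at 42.3 (Pro35SARR1), 23.5 (arr1-labelled) and 56.7 (WT) CPM in replicate 2, against 15.1, 9.76 and 10.6 CPM in the same order in replicate 1 (log2 difference 1.73 ± 0.23, adjusted p = 0.0302). The arr1-labelled pair held the smallest VSP2 difference, and the copies may share reads. MYC2, the pathway's main transcription factor, differed by 0.57 ± 0.08 on the log2 scale (adjusted p = 0.0302). The synthesis gene LOX2 was at 0.112 (Pro35SARR1), 0.683 (arr1-labelled) and 0.674 (WT) CPM in replicate 2, against 4.21, 1.38 and 4.06 CPM in the same order in replicate 1 (log2 difference -2.62 ± 0.72, adjusted p = 0.107).

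Of the rapid immune, wound and touch genes 3 were higher and 1 lower of 21 tested. The ethylene response factors ERF104 (log2 difference 1.00 ± 0.14, adjusted p = 0.0321) and ERF5 (log2 difference 0.95 ± 0.12, adjusted p = 0.0285) and the zinc finger STZ (log2 difference 0.77 ± 0.12, adjusted p = 0.0427) rose, while WRKY29 fell (log2 difference -1.39 ± 0.19, adjusted p = 0.0321). Among cold and abscisic acid genes the cold regulators CBF1 (log2 difference 1.99 ± 0.23, adjusted p = 0.0265) and CBF2 (log2 difference 1.21 ± 0.16, adjusted p = 0.0308) rose, although KIN1 (log2 difference -1.67 ± 0.23, adjusted p = 0.0321) and RD22 (log2 difference -0.51 ± 0.07, adjusted p = 0.0329) fell. CBF1 was at 7.71 (Pro35SARR1), 23.6 (arr1-labelled) and 7.53 (WT) CPM in replicate 2, against 2.28, 4.37 and 2.37 CPM in the same order in replicate 1, and the arr1-labelled library of replicate 2 stood highest. CBF1 and CBF2 are adjacent copies that may share reads. BGL2, a glucanase also known as PR2, was at 46.6 (Pro35SARR1), 15.7 (arr1-labelled) and 5.4 (WT) CPM in replicate 2, against 13.7, 2.41 and 2.03 CPM in the same order in replicate 1 (log2 difference 1.96 ± 0.24, adjusted p = 0.0281), the only call of 17 tested salicylate genes. Heat shock proteins split, with HSP70 (log2 difference 0.95 ± 0.14, adjusted p = 0.0381) and HSP90.1 (log2 difference 0.88 ± 0.15, adjusted p = 0.0481) higher and the small HSP17.6B (log2 difference -0.52 ± 0.09, adjusted p = 0.0469) lower. DESeq2 called HSP70 alone of these, and limma HSP17.6B alone. Without either WT library 0 were called by edgeR.

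**Figure D3:**
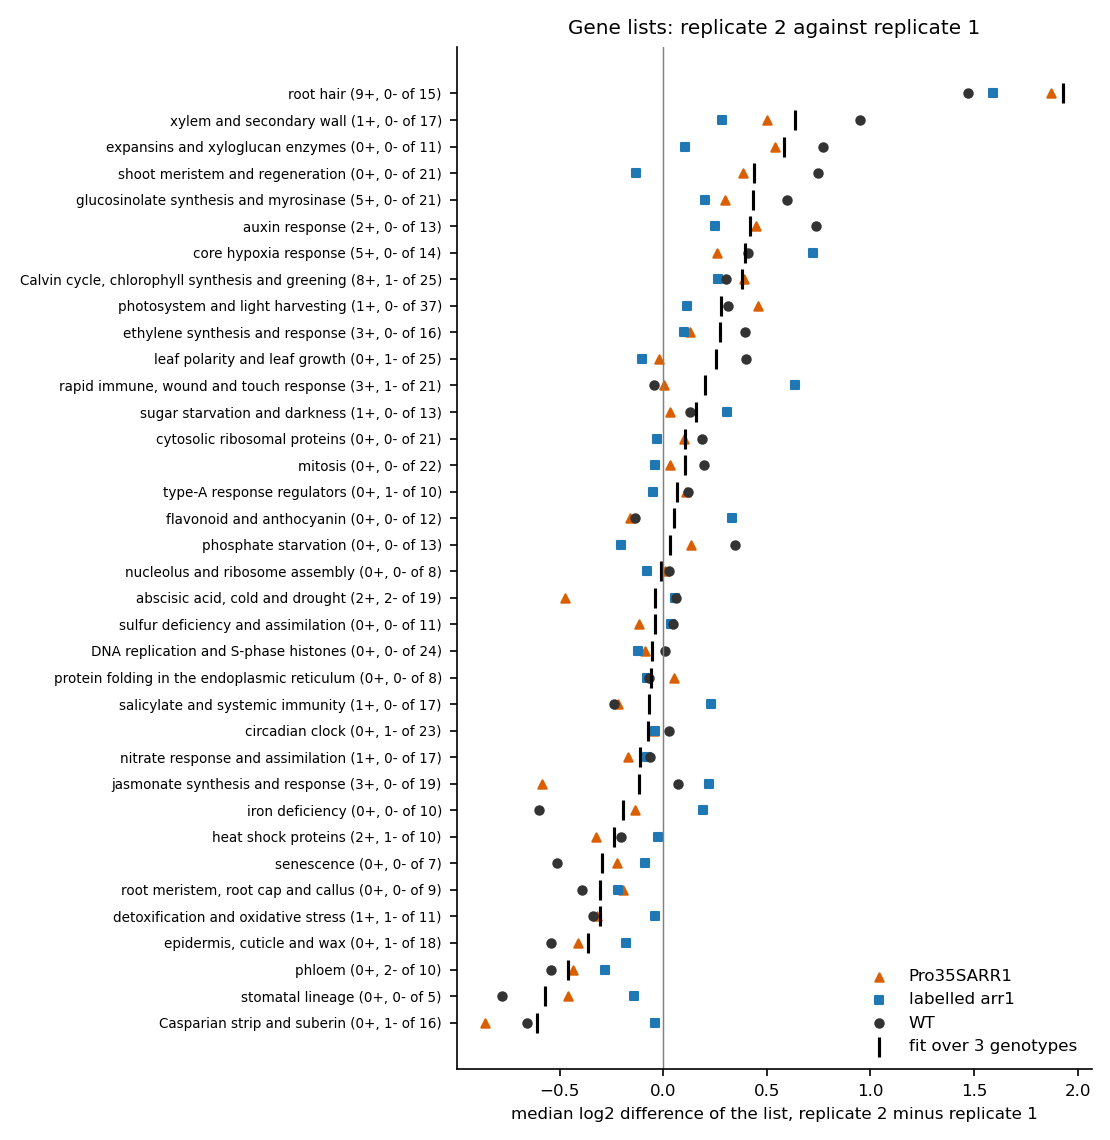
Median log2 difference, replicate 2 minus replicate 1, of each of the 36 gene lists, per genotype, with the number of genes called higher and lower of those tested. The lists were chosen with earlier results of these data known. Root hair lies highest at 1.93, and the Casparian strip and suberin list lies lowest at -0.61.

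Metal transport genes were among those that fell. Nicotianamine, a small chelator made by NAS enzymes, carries iron and zinc between cells, and YSL proteins move the metal complex. Of 11 genes tested in these families 5 were lower and 0 higher, and 1 to 2 were lower without a WT library. NAS3 was at 8.27 (Pro35SARR1), 2.85 (arr1-labelled) and 9.55 (WT) CPM in replicate 2, against 24.2, 7.47 and 41 CPM in the same order in replicate 1 (log2 difference -1.73 ± 0.18, adjusted p = 0.0205). YSL1 was at 61.1 (Pro35SARR1), 45.1 (arr1-labelled) and 102 (WT) CPM in replicate 2, against 158, 87.2 and 283 CPM in the same order in replicate 1 (log2 difference -1.27 ± 0.11, adjusted p = 0.0154). In both, every pair was lower in replicate 2 and the low arr1-labelled library of replicate 1 made the sets overlap. NAS1 (log2 difference -1.47 ± 0.19, adjusted p = 0.0285), YSL3 (log2 difference -0.91 ± 0.12, adjusted p = 0.0285) and YSL2 (log2 difference -0.49 ± 0.07, adjusted p = 0.0379) were the other calls. Of 9 tested ZIP and IRT uptake transporters 3 were lower and 0 higher, namely IRT3 (log2 difference -0.83 ± 0.09, adjusted p = 0.0205), ZIP1 (log2 difference -0.72 ± 0.12, adjusted p = 0.0427) and ZIP4 (log2 difference -0.65 ± 0.09, adjusted p = 0.0342), and 1 of them, IRT3, without either WT library, whereas IRT2 differed by 1.50 ± 0.31 on the log2 scale (adjusted p = 0.066). In all 3 genotypes 6 of the 9 ZIP and IRT genes were lower and 3 higher, namely IRT2, ZIP3 (log2 difference 0.72) and ZIP6 (log2 difference 0.66). Of the 10 iron-deficiency genes tested 0 were called by edgeR, 1 was lower by DESeq2, and 2 were higher and 2 lower at an unadjusted p under 0.05. IRT1, the main iron uptake transporter of roots, was at 0 in all 6 libraries.

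Single genes of the cytokinin pathway changed. ARR8, a type-A response regulator that dampens the signal, was at 19 (Pro35SARR1), 20.2 (arr1-labelled) and 14.7 (WT) CPM in replicate 2, against 48.7, 37.8 and 41.5 CPM in the same order in replicate 1, and the sets did not overlap (log2 difference -1.25 ± 0.14, adjusted p = 0.0226). It was the only call of the 10 type-A genes, and ARR5 differed by -0.01 ± 0.07 on the log2 scale (adjusted p = 0.975). PUP1, a purine permease that also carries cytokinins, was at 1.9 (Pro35SARR1), 1.14 (arr1-labelled) and 5.4 (WT) CPM in replicate 2, against 10.0, 8.27 and 23.9 CPM in the same order in replicate 1 (log2 difference -2.40 ± 0.21, adjusted p = 0.0154). Among 23 tested genes of synthesis, breakdown and receptors, the receptor WOL (log2 difference -0.53 ± 0.07, adjusted p = 0.0281) and the hydroxylase CYP735A2 (log2 difference -0.62 ± 0.11, adjusted p = 0.0486) fell and the cytokinin oxidase CKX3 (log2 difference 1.04 ± 0.18, adjusted p = 0.0474) rose. With offsets for transcript length and base composition, described below, these 3 calls were lost, and limma called 1 of the 3, as edgeR did without either WT library. WOL was at 92.7 (Pro35SARR1), 77.9 (arr1-labelled) and 70.3 (WT) CPM in replicate 2, against 139.7, 111 and 99.5 CPM in the same order in replicate 1, without overlap.

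The largest falls were spread over unrelated functions. AT1G23130, of the polyketide cyclase family, was at 10.7 (Pro35SARR1), 5.12 (arr1-labelled) and 17.9 (WT) CPM in replicate 2, against 90.3, 9.65 and 198 CPM in the same order in replicate 1 (log2 difference -2.86 ± 0.41, adjusted p = 0.0346), with the smallest difference in the arr1-labelled pair. DIN11, a dark-inducible oxygenase, was at 1.9 (Pro35SARR1), 1.59 (arr1-labelled) and 2.36 (WT) CPM in replicate 2, against 11.5, 6.43 and 27.7 CPM in the same order in replicate 1 (log2 difference -2.80 ± 0.32, adjusted p = 0.0262). DES1, which releases sulfide from cysteine, was at 3.35 (Pro35SARR1), 2.39 (arr1-labelled) and 6.41 (WT) CPM in replicate 2, against 14.5, 9.53 and 34.7 CPM in the same order in replicate 1 (log2 difference -2.21 ± 0.17, adjusted p = 0.0141). The sets of DIN11 and DES1 did not overlap. The subtilase AT5G45650 had the lowest adjusted p of the falls named here (log2 difference -1.97 ± 0.12, adjusted p = 0.00821). The resistance gene RLM3 (log2 difference -2.21 ± 0.23, adjusted p = 0.0205), the receptor kinases CRK22 (log2 difference -2.09 ± 0.20, adjusted p = 0.0184) and CRK21 (log2 difference -1.92 ± 0.24, adjusted p = 0.0281), the peptide transporter PTR3 (log2 difference -1.98 ± 0.20, adjusted p = 0.0187), the RALF-annotated AT4G14020 (log2 difference -2.33 ± 0.37, adjusted p = 0.041) and the MYB-like RL4 (log2 difference -1.88 ± 0.27, adjusted p = 0.0342) completed the 12 largest, with PUP1 and AT4G08780. CRK21 and CRK22 are neighbours and may share reads. Among the most abundant genes that fell were GAPC1, a glycolytic dehydrogenase (log2 difference -0.44 ± 0.07, adjusted p = 0.0378), the pectin methylesterase PMEPCRA (log2 difference -0.50 ± 0.08, adjusted p = 0.0461), GRP-3 (log2 difference -0.45 ± 0.07, adjusted p = 0.0441) and AT3G02468 (log2 difference -0.40 ± 0.07, adjusted p = 0.0496).

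On the higher side the abundant calls beside RBCS1A were TIP2, a vacuolar water channel (log2 difference 0.80 ± 0.11, adjusted p = 0.0317), TCTP (log2 difference 0.45 ± 0.08, adjusted p = 0.0496), the glutathione transferase GSTU19 (log2 difference 0.41 ± 0.06, adjusted p = 0.0389) and NIA1, nitrate reductase (log2 difference 0.43 ± 0.07, adjusted p = 0.0406). NIA1 was the single call of 17 nitrate genes, and GSTU24 fell (log2 difference -0.71 ± 0.11, adjusted p = 0.0427) where GSTU19 rose. DR4, annotated as drought-repressed, was at 45.2 (Pro35SARR1), 33.1 (arr1-labelled) and 46 (WT) CPM in replicate 2, against 6.49, 9.99 and 3.16 CPM in the same order in replicate 1 (log2 difference 2.69 ± 0.36, adjusted p = 0.0318). DIN10 rose (log2 difference 0.75 ± 0.10, adjusted p = 0.0285), the only call of 13 sugar starvation genes. Without either WT library the calls of NIA1, GSTU19, GSTU24 and DIN10 were lost. For PHYLLO and AT3G22980 the rule on size named genes near the floor. PHYLLO was at 10.5 (Pro35SARR1), 3.19 (arr1-labelled) and 1.46 (WT) CPM in replicate 2, against 0, 0.115 and 0 CPM in the same order in replicate 1, and AT3G22980 at 10.3 (Pro35SARR1), 9.91 (arr1-labelled) and 3.82 (WT) CPM in replicate 2, against 0, 0.574 and 0 CPM in the same order in replicate 1. They are given without a fold, since a value listed at 0 here can be a failed estimate. Of the 7 called genes whose pairs disagreed, several showed that pattern: ATMIN7 had 281 and 152 counts in the arr1-labelled and Pro35SARR1 libraries of replicate 1 and 0 in the other 4.

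**Figure D4:**
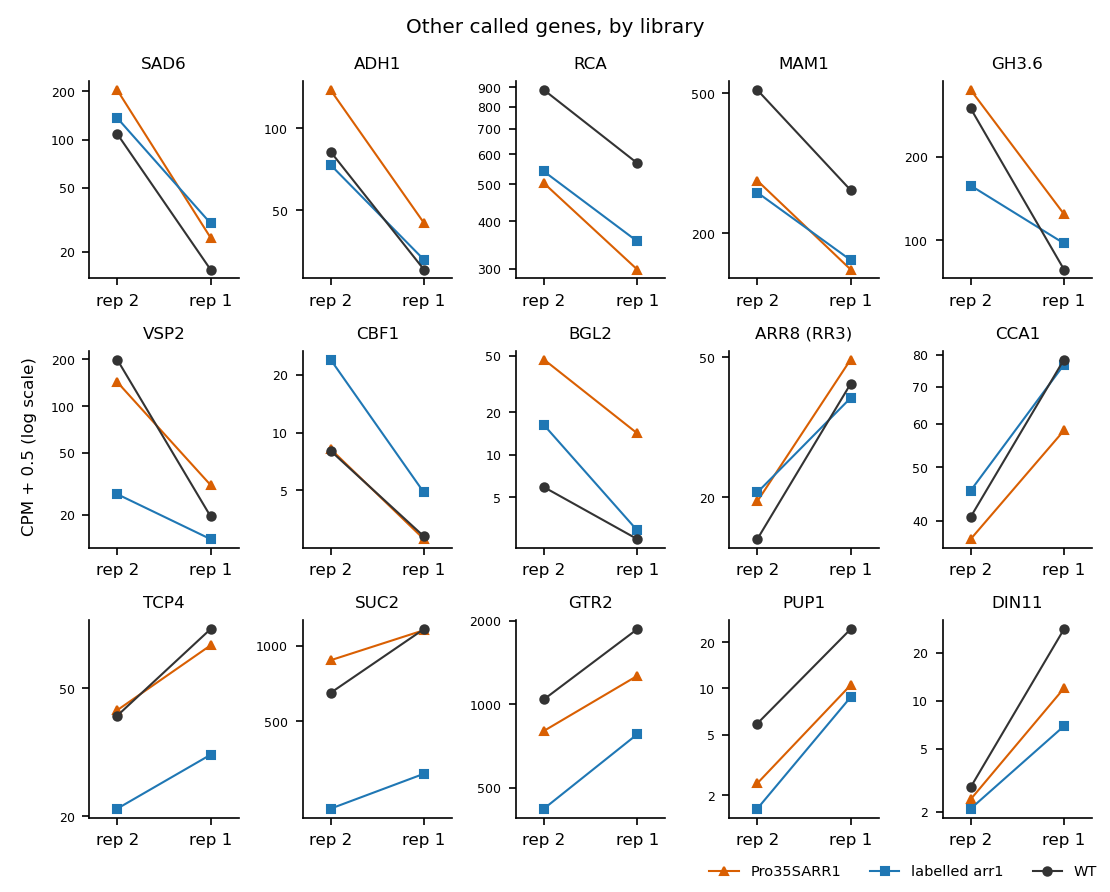
CPM plus 0.5, on a log axis, of 15 called genes outside the root hair list in each library, with replicate 2 on the left, replicate 1 on the right and a line joining the pair of each genotype. Replicate 2 points lie above those of replicate 1 for SAD6 to BGL2 and below them for ARR8 to DIN11 in all 3 genotypes, and VSP2 has its smallest step in the arr1-labelled pair, at 26.6 and 13.4 CPM.

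Marker lists of the other tissues that explants can hold had medians nearer to 0 than root hair genes. For xylem and secondary wall 1 of 17 was higher, the lignin laccase LAC4 (log2 difference 0.94 ± 0.17, adjusted p = 0.0496), with a median of 0.64. The list held 12 genes higher in all 3 genotypes, beside 22.9% of all tested genes. Its summed level was 553 (Pro35SARR1), 392 (arr1-labelled) and 706 (WT) CPM in replicate 2, against 364, 321 and 306 CPM in the same order in replicate 1. SND1 was at 0 in all 6 libraries. The Casparian strip and suberin list had a median of -0.61 and 1 of 16 lower, the suberin reductase FAR5 (log2 difference -0.54 ± 0.08, adjusted p = 0.0335). Without either arr1-labelled library 11 were lower, and 5 xylem genes and 1 cuticle gene were higher and 7 cuticle and 4 phloem genes lower. Without either WT library edgeR called 0 genes in these 4 lists. CASP1, which builds the strip, was at 1.79 (Pro35SARR1), 7.74 (arr1-labelled) and 2.47 (WT) CPM in replicate 2, against 11.4, 8.85 and 22.8 CPM in the same order in replicate 1 (log2 difference -1.91 ± 0.59, adjusted p = 0.133). Phloem genes had a median of -0.46 and 2 of 10 lower, beside 1.43% of all tested genes. SUC2, which loads sucrose into the phloem, was at 874 (Pro35SARR1), 225 (arr1-labelled) and 649 (WT) CPM in replicate 2, against 1151, 309 and 1162 CPM in the same order in replicate 1 (log2 difference -0.57 ± 0.10, adjusted p = 0.0498), and the phloem lectin PP2-A1 differed by -0.82 ± 0.11 on the log2 scale (adjusted p = 0.0285).

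Epidermal cuticle and wax genes had 1 of 18 lower, CER3 (log2 difference -0.64 ± 0.08, adjusted p = 0.0281), with a median of -0.36. The shoot epidermis factor ATML1 was at 5.25 (Pro35SARR1), 56.1 (arr1-labelled) and 3.71 (WT) CPM in replicate 2, against 4.44, 46.9 and 3.16 CPM in the same order in replicate 1, a difference between genotypes in both sets. Stomatal genes were summed at 6.14 (Pro35SARR1), 24.6 (arr1-labelled) and 8.43 (WT) CPM in replicate 2, against 9.11, 27.7 and 15.6 CPM in the same order in replicate 1, and root meristem and cap genes at 86.4 (Pro35SARR1), 118 (arr1-labelled) and 85.5 (WT) CPM in replicate 2, against 98, 128 and 103 CPM in the same order in replicate 1. Neither list had a call by edgeR: of 5 stomatal genes 1 was lower at an unadjusted p under 0.05 and 0 by DESeq2, and of 9 root meristem genes 3 were lower and 1 by DESeq2. The root epidermis factor WER was too low to be tested. Shoot meristem and regeneration genes had 0 of 21 called by edgeR, 2 higher by DESeq2, and 6 higher and 1 lower at an unadjusted p under 0.05. The median was 0.44, and 0.39 in the Pro35SARR1, -0.13 in the arr1-labelled and 0.75 in the WT pair. WUS, which founds the stem cell niche, was at 29.4 (Pro35SARR1), 6.04 (arr1-labelled) and 5.96 (WT) CPM in replicate 2, against 41.1, 10.5 and 13.9 CPM in the same order in replicate 1 (log2 difference -0.79 ± 0.17, adjusted p = 0.07), and CLV3 was too low to test. The part of the shares of these tissues in the shifts reported above was not tested.

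Some regulators and structural genes fell as well. CCA1, the morning factor of the clock, was at 36.5 (Pro35SARR1), 44.9 (arr1-labelled) and 40.1 (WT) CPM in replicate 2, against 57.8, 76.3 and 77.9 CPM in the same order in replicate 1, without overlap (log2 difference -0.80 ± 0.09, adjusted p = 0.0225), the only call of 23 clock genes. LHY, its partner, differed by -0.43 ± 0.09 on the log2 scale (adjusted p = 0.0723). TCP4, which limits leaf cell proliferation, fell (log2 difference -0.73 ± 0.09, adjusted p = 0.0285), the only call of 25 leaf genes. Without either WT library neither CCA1 nor TCP4 was called. Of the 4 LINC genes for lamina-like proteins of the nucleus 3 fell, LINC2 the most (log2 difference -1.02 ± 0.14, adjusted p = 0.0308), and of 8 tested NET genes for actin-binding proteins 2 fell, NET1D (log2 difference -1.59 ± 0.13, adjusted p = 0.0154) and NET1C (log2 difference -1.13 ± 0.16, adjusted p = 0.0352). All 4 LINC genes were lower in all 3 genotypes, and of the 8 NET genes 5 were lower and 1 higher in all 3. Over all tested genes 24.8% were lower in all 3. Without either WT library edgeR called 0 LINC genes and 1 NET gene, and limma called 1 LINC gene. NET1D was at 15 (Pro35SARR1), 32.7 (arr1-labelled) and 29.5 (WT) CPM in replicate 2, against 60.0, 88.9 and 77.7 CPM in the same order in replicate 1. Ribosomal protein genes had a median of 0.11, mitosis genes 0.11 and DNA replication genes -0.05. Of these 67 tested genes 0 were called by edgeR or DESeq2, and 5 were higher and 4 lower at an unadjusted p under 0.05.

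Gene length and base composition moved with the sets. With genes cut into 10 equal bins by spliced exon length, the median log2 difference was 0.07 in the shortest bin, with 34 genes higher and 14 lower, and -0.08 in the longest, with 14 higher and 42 lower. By GC share it was -0.02 in the lowest bin and 0.07 in the highest, where 70 genes were higher and 18 lower. By purine share it was 0.06 in the lowest bin, with 50 higher and 21 lower, and -0.08 in the highest, with 25 and 53. The called extensins have 35.7% to 41.7% purine, and LINC genes a median of 61.1% and a length of 3968 bases. With offsets for length, GC and purine, chosen after seeing the data, 240 genes were higher and 219 lower, 410 of them called in both fits. The root hair median was then 1.75 with 10 of 15 higher, the extensin median 1.00 with 10 higher and 1 lower, and the LINC median -0.42 with 2 of 4 lower. Of the genes named above as called, 12 missed the threshold with these offsets, namely STZ, VSP2, FLA6, SOT18, LAC4, FAR5, HSP17.6B, PDC2, CGA1, WOL, CYP735A2 and CKX3.

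**Figure D5:**
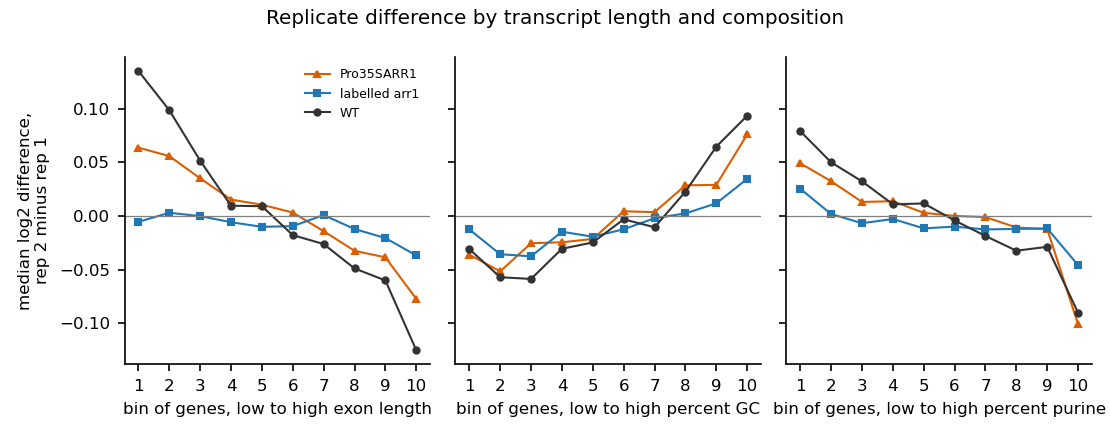
Median log2 difference, replicate 2 minus replicate 1, in 10 bins of exon length, GC share and purine share over 17855 genes, per genotype. Medians are lower at greater length and purine share and higher at greater GC share, lie between -0.125 and 0.135 in every genotype, and spread least in the arr1-labelled pair.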

How the data were processed

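Root explants of Pro35SARR1, arr1-labelled and WT plants gave 2 RNA libraries each, grouped and numbered by the sample titles. The series text writes AOE for the third genotype, taken here as Pro35SARR1. Per the file headers, the deposited table gives every library an estimated count and an FPKM column over 35593 isoforms, which belong to 26726 genes. CASAVA and DESeq are named, with no role, in the submitters' processing notes, while aligner, genome build and strandedness were not given in the sources used. Overlapping and antisense genes may therefore share reads. Among genes with 1 isoform, 90.0% to 90.8% of low deposited estimated counts were whole multiples, within 0.02, of a step of 0.855 to 1.152 that differed between libraries, and dividing by it gave 8011309 to 10001633 fragments per library.

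Estimated counts were summed per gene, rounded, filtered with filterByExpr and scaled by TMM. The test was the quasi-likelihood F test of edgeR 4.0.16 in R 4.3.3, with genotype and replicate number as terms, on all 6 libraries (18083 genes, 2 residual degrees of freedom). A call was a Benjamini-Hochberg adjusted p under 0.05, and an SE is the log2 difference divided by the square root of F. Differences per genotype used CPM + 0.5. Genotype is the pairing, taken from the labels, and the 3 pairs' differences correlated with r of 0.38 to 0.606 across 14842 genes. On simulated data for replicate 2 against replicate 1 over 17872 genes, calls fell on 87% of genes given a 2-fold change, 95% of those given a 4-fold change and 19 genes given none. Each fold was given to 100 genes, so the 19 false calls are a larger share of the calls than the threshold of 0.05 allows for. Only more abundant genes were changed, and each library was drawn independently around the mean of its genotype. The shares therefore do not cover genes with low counts.

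Lists, families and members were chosen with earlier results of these data known. Named genes are up to 4 called genes per list by adjusted p that moved alike in all 3 genotypes, the most abundant gene of a list with no call, the 12 largest calls per direction that moved alike with at least 5 CPM in the higher set, the 5 most abundant calls per direction, and ARR1. Other genes named in the text were added after their values had been seen. Symbols, annotations and promoters come from RefSeq TAIR10.1. Alternatives were DESeq2 1.42.0 (its test, or its size factors), library totals, other filters, no block, counts divided by the step, limma 3.58.1 on log2(FPKM + 1) and log2(FPKM + 0.1), each library left out and, chosen after seeing the data, offsets for length and composition and 2 further DESeq2 fits. The deposited tables of the authors' own comparisons were not used here.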

Additional observations from a re-analysis of the deposited data

Results flagged for a closer look

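In 3 gene lists and 1 named gene, the differences between the sets had opposite signs in 2 genotypes, and none of these differences between genotypes was tested. The median log2 difference, replicate 2 minus replicate 1, of the jasmonate list was -0.583 in Pro35SARR1 and 0.22 in the arr1-labelled pair. For the salicylate and systemic immunity list it was 0.229 in the arr1-labelled and -0.235 in the WT pair. For the phosphate starvation list it was -0.204 in the arr1-labelled and 0.346 in the WT pair. TGG1, a myrosinase, differed by -0.805 in Pro35SARR1 and by 3.07 in the arr1-labelled pair. The Pro35SARR1 value rests on 5 counts in replicate 1 and 1 in replicate 2, the latter under the floor of 3 counts. Its direction in that genotype is therefore not resolved.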

How the results depend on the processing

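Against 277 genes higher and 259 lower in replicate 2, the counts stayed within 1.5 times with DESeq2 size factors (288 and 265), library totals (263 and 309), no filter (275 and 247), a mean of at least 5 CPM (333 and 326), counts divided by the step (270 and 255), limma on log2(FPKM + 1) (302 and 200) and the offsets added after seeing the data (240 and 219). The DESeq2 test called 483 higher and 420 lower, and limma on log2(FPKM + 0.1) called 144 lower. Leaving out 1 library gave 0 to 992 higher and 0 to 999 lower genes, and 1192 to 2407 for the arr1-labelled libraries against WT and 6 to 1078 for Pro35SARR1 against WT. DESeq2 called 95 higher and 53 lower without the Pro35SARR1 library of replicate 1, and 83 and 64 without that of replicate 2. The cause of these changes was not tested, and a fit on 5 libraries has 1 residual degree of freedom fewer. With genotype as a term, a library left without its partner adds nothing to the replicate difference. Such a fit rests on the pairs of the other genotypes, so leaving out either library of a genotype is nearly the same test.

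With no replicate block, 0 genes were higher and 0 lower by edgeR (1452 at an unadjusted p under 0.05), DESeq2 called 89 and 74, and the genotype counts were 541 for arr1-labelled and 16 for Pro35SARR1 against WT. The replicate numbers pair the sets within genotype, and leaving the block out puts the genotype differences into the spread. Of 79 named genes that were called, 79 lost the call with no block and 79 without a Pro35SARR1 library, and none of these 79 changed sign under any alternative. These 79 genes were named only where all 3 pairs moved alike, so their kept sign was nearly fixed by that choice. List medians kept their sign under every alternative for 26 of 36 lists. The lists that did not were small in median, between -0.118 and 0.0519.

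With 1 library per genotype in each set, the design rests on 3 pairs. A difference under the floor of 3 counts, 0.335 to 0.345 CPM, is not detectable, and genes with values listed at 0 can be failed estimates.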

Other observations

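Several lists not described above held 0 calls by edgeR. Of 12 flavonoid and anthocyanin genes, which make the red pigments of stressed seedlings, 2 were lower at an unadjusted p under 0.05 and 0 were called by DESeq2, around a median of 0.05 on the log2 scale. Of 13 phosphate starvation genes 2 were higher and 4 lower at an unadjusted p under 0.05, DESeq2 called 2 lower, and the median was 0.03. Of 7 senescence genes 1 was lower at an unadjusted p under 0.05 and 1 by DESeq2, with a median of -0.30. Of 11 sulfur genes 1 was higher and 2 lower at an unadjusted p under 0.05, and DESeq2 called 0. Of 8 genes for nucleolus and ribosome assembly 1 was lower at an unadjusted p under 0.05, and of 8 for protein folding in the endoplasmic reticulum 0 passed it. DESeq2 called 0 in both of these lists.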
